A study of Mus musculus with 8 samples.

Results

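DNA methylation of 41 nuclear receptor genes was examined in mouse hepatocytes at the ages of 10 and 40 weeks. A CpG was taken as a member if it lay in the gene body or within 1500 bases upstream of the gene start (mm10) and had at least 5 reads in each mouse after its strands were summed. The rule gave 3431 of the 897285 CpGs tested across the genome, in 40 of the 41 genes. After collagenase digestion of the liver, hepatocytes of 8 female C57Bl6/J mice on a control diet gave 1 library of reduced representation bisulfite sequencing (RRBS) each, 4 from mid-aged animals (40 weeks) and 4 from young ones (10 weeks). No mutation or treatment is named for either group, so age is the stated difference. RRBS cuts DNA with MspI at CCGG and reads the fragment ends after bisulfite conversion, so a CpG is read only if it lies near such a site. Methylation is the percent of reads at a CpG that were methylated, and differences are given in percentage points, mid-aged minus young.

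Nuclear receptors are a family of transcription regulators, most of which bind DNA through zinc fingers and carry a pocket for a small lipophilic ligand. Many of them pair with the retinoid X receptors, and ligand binding exchanges corepressors for coactivators. In the liver they sense fatty acids, oxysterols, bile acids, xenobiotics and glucocorticoids, set the daily rhythm and control the metabolism of lipids and glucose. The orphan receptors of the family have no settled natural ligand, and several of them act in development rather than in the adult hepatocyte. Promoters rich in CpGs are usually unmethylated in all tissues, while CpGs in gene bodies are usually methylated.

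The sequences that carry the results are given first, each 5′ to 3′ on the strand of its gene. In *Nr2f2* the called CpGs of the only run are in capitals (chr7:70358030-70358226, minus strand, coding exon 2).
Nr2f2: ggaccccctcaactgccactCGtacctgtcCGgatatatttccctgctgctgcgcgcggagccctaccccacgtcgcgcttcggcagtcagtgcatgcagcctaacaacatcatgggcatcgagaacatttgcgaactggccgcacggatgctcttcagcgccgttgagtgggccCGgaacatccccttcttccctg

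The start of the coding sequence of *Esr1* in exon 3 shows part of the largest cluster of CpGs that was higher in every mid-aged mouse (chr10:4712384-4712583, plus strand). Capitals mark its 11 tested CpGs, all with a higher mean in the mid-aged mice.
Esr1: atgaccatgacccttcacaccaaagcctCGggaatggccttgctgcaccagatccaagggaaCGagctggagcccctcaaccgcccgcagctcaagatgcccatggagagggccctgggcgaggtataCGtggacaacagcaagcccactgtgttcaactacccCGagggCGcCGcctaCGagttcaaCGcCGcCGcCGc

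Single called CpGs, in capitals, are shown in intron 2 of *Ppard* (chr17:28280725-28280786, plus strand), in the 3′ UTR of *Rara* (chr11:98973702-98973731, plus strand) and in intron 2 of *Nr2f6* (chr8:71376335-71376364, minus strand), where the annotation also holds an untranslated region of another transcript. The called CpG lay inside a CCGG site in *Rara* and *Nr2f6* but not in *Ppard*.
Ppard: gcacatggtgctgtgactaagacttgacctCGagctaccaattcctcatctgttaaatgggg
Rara: tgacctgtcggcccCGggcccgcttgtcct
Nr2f6: gcccagtgtgtgccCGgtcccctgtgtggc

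A pair of RefSeq promoters (GRCm38.p6), each the 250 bases before the gene start with all CpGs in capitals, shows how much the members differ in CpG content. The *Rora* window (chr9:68653536-68653785, plus strand) held 26 CpGs, of which 20 were tested, with a mean of 0.656% in mid-aged and 0.441% in young mice. The *Nr1i2* window (chr16:38294825-38295074, minus strand) held 2 CpGs, and neither was tested.
Rora: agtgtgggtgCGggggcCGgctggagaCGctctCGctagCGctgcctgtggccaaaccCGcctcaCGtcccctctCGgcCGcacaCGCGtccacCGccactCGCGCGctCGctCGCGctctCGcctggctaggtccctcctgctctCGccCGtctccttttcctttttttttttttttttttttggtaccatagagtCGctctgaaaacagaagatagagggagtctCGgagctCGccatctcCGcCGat
Nr1i2: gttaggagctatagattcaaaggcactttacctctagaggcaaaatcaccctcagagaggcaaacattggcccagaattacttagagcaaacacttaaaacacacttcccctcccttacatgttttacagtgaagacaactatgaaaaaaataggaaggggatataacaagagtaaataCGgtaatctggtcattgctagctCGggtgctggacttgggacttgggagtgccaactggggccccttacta

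The libraries held 84639955 to 118395064 reads over CpGs in mid-aged and 46321447 to 72710972 in young mice, so the groups differed in depth. Median coverage of the member CpGs ran from 48 to 91 reads in the mid-aged group and from 27 to 60 in the young, and 2648 of the 3431 had at least 10 reads in every mouse. At CpGs with intermediate methylation young replicate 1, the shallowest library, stood farthest from the other mice of its group (SD 18.9 points, against 10.5 to 17.4 in the others). Read counts alone gave an expected SD of 10.4 points for it and of 8.31 to 11.1 for the others. Of 31 marker genes of liver cell types, 11 had a promoter mean. The hepatocyte genes *Apob* and *Fgb* had 22.6% and 18.9% in mid-aged and 15% and 14.7% in young mice, and the promoters of the other cell types ran from 2.07 to 85.2% in mid-aged and from 1.16 to 89.2% in young mice, so promoter methylation did not separate hepatocyte genes from the rest. The defining hepatocyte genes *Alb* and *Apoa1* had no tested CpG. Summed over gene bodies, the marker CpGs of Kupffer cells and leukocytes had a mean of 72.8 to 74.7% in mid-aged and 74.0 to 79.3% in young mice, those of endothelial cells 80.1 to 81.1% and 78.3 to 79.2%, of stellate cells 25.8 to 26.1% and 24.9 to 25.3%, and of bile duct cells 32.2 to 33.7% and 31 to 32.6%. The 43 CpGs of the hepatocyte list had 55.4% ± 1.02 and 54.3% ± 1.92. Between the ages the ranges did not overlap for the endothelial and stellate lists and overlapped for the other lists. None of the 40, 146, 288 and 204 CpGs of the lists of other cells was called. With 0.163% of all tested CpGs called, lists this small could hardly give calls, so this count decides nothing. The part of other cells in the results was not tested.

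Over all member CpGs the mid-aged mice had a mean of 30.8% ± 0.174 and the young mice 30.5% ± 0.271 (SD, n = 4), a difference of 0.296 points. With reads pooled over CpGs, so that deep CpGs weigh more, the direction turned to -8.21 points (21.0% against 29.2%), and the same pooling over all tested CpGs gave 31.4% against 43.2%. The CpGs of all other genes had a mean of 37.7% and 37.4%, with a difference of 0.284 points. Of the member CpGs, 64.8% were below 20% methylation and 24.9% above 80%, against 56.3% and 31.8% in other genes. Only 10.3% of the member CpGs had an intermediate level. The largest differences between the ages among the role groups were those of the fatty acid, oxysterol and bile acid sensors (47.9% ± 0.367 in mid-aged, 49.3% ± 0.490 in young mice, 312 CpGs) and the steroid receptors (26.3% ± 0.0894 and 25.3% ± 0.324, 454 CpGs). These are means over CpGs that share genes, given without a test. Single genes weigh heavily in them: *Ppard*, with 140 of the 312 CpGs, differed by -2.68 points, and *Esr1*, with 92 of the 454, by +4.76.

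The level went with the position of a CpG in its gene. The 1620 member CpGs within 500 bases of an annotated transcript start had a mean of 12.7% ± 0.0906 in mid-aged and 12.2% ± 0.320 in young mice. The 960 CpGs more than 2000 bases from every start had 73.6% ± 0.327 and 74.3% ± 0.469. CpGs in 5′ UTRs had the lowest mean (2.82% over 385 CpGs), and the 31 CpGs in 3′ UTRs the highest (82.0%), with coding exons at 53.3% and introns at 33.5%. Of 25 genes with at least 3 tested CpGs in each zone, 25 were lower at the starts in young and 24 in mid-aged mice. *Esr1*, the estrogen receptor alpha gene, had 74.3% at starts and 67.4% far from them in mid-aged mice, and 65.6% and 67.7% in young mice. Of its 52 CpGs at starts, 49 formed 1 cluster over the end of intron 2 and exon 3. A RefSeq promoter window of *Esr1* with 3 tested CpGs had only 25.7% ± 3.70 (mid-aged) and 24.8% ± 6.72 (young). The other *Esr1* window held no tested CpG.

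**Figure D1:**
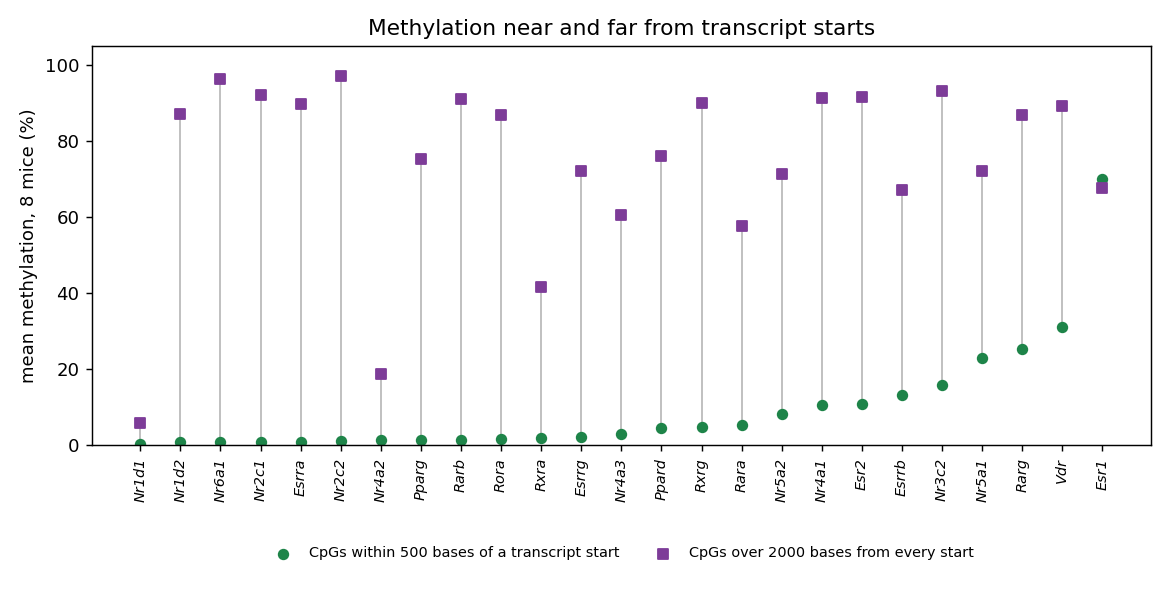
Mean methylation in percent over all 8 mice for the 25 nuclear receptor genes with at least 3 tested CpGs in both zones; circles are CpGs within 500 bases of a transcript start and squares are CpGs more than 2000 bases from every start. In the mean over 8 mice starts were lower than distant CpGs in 24 genes, and in *Esr1* the values lay close together.

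Of 36 genes with at least 3 tested CpGs at the starts, 23 had a start mean under 10%, 10 lay from 10 to 50% and 3 were above 50%. The 3 were *Nr2e3*, a receptor of photoreceptor cells (82.8% and 84.1% in mid-aged and young mice), *Nr1h2*, which encodes the oxysterol receptor LXR beta (65.1% and 65.1%), and *Esr1* (74.3% and 65.6%). In *Nr1h2* all 68 tested CpGs lay within 500 bases of some annotated start, so its value is the mean of the whole gene. The 22 of them nearest the gene start were almost unmethylated, with a promoter mean of 1.91% (mid-aged) and 1.68% (young). The RefSeq promoter windows of 300 bases, found for 38 members in 57 windows, held at least 3 tested CpGs in 29 windows of 22 genes. Of these, 26 were under 10% methylated and 0 above 50%. The 23 windows with no tested CpG had a median of 6 CpGs, against 20 in the 29 windows that were read and 7 in all 32851 windows of the genome. Among the windows with no tested CpG were those of *Nr1h4* (FXR, the bile acid receptor), *Nr1i2* (PXR) and *Nr1i3* (CAR), the xenobiotic receptors, with 7, 2 and 3 CpGs. These promoter windows of liver receptors were therefore not measured here. Outside them, *Nr1i3* had 1 tested CpG within 500 bases of a start (22.1% ± 5.92 in mid-aged, 8.10% ± 6.66 in young mice). *Nr1i2* had 2 at 500 to 2000 bases from a start (21.5% ± 12.1 and 0.781% ± 1.56).

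*Nr0b2*, which encodes the small heterodimer partner induced by bile acids, was the member with no tested CpG. Its mice had 10 to 82 reads over 6 to 12 CpGs, and the share of methylated reads ran from 7.69 to 25.0% in mid-aged and from 0 to 9.72% in young mice. At 0 of 24 reads in young replicate 1 a share of up to 12.5% is allowed, and 1 of 10 reads in mid-aged replicate 1 has a 95% Wilson interval of 1.79 to 40.4%. Intervals and limits of this kind cover counting error only, since reads without molecular identifiers are not independent molecules. These reads are too few for a comparison.

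The retinoid receptors bind retinoic acid or, as the RXR subtypes, serve as partners of other receptors. *Rxrb* (9.66% ± 0.212 mid-aged, 9.41% ± 0.595 young) and *Rxra* (14% ± 0.512 and 14.8% ± 0.335), the main RXR gene of liver, had the lowest gene means of the group, and *Rarg* (48.2% ± 1.35 and 46.3% ± 2.91) the highest. *Rara*, *Rarb* and *Rxrg* lay between them, at 26.4%, 31.9% and 39.9% in mid-aged and 26.9%, 31.5% and 39.6% in young mice. In *Rxra* the starts were at 2.11% and 2.0%, and the 46 CpGs far from them at 40.1% ± 1.62 and 43.0% ± 1.04, among the lowest distant levels of the members.

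The sensors of fatty acids, oxysterols and bile acids spanned a wide range. *Pparg*, the adipocyte regulator, had a gene mean of 7.68% ± 0.690 in mid-aged and 8.50% ± 0.441 in young mice. Most of its CpGs lay near starts, and the 6 more than 2000 bases from every start were at 70.9% ± 5.53 and 79.4% ± 3.02. *Nr1h4* had a gene mean of 72.1% ± 1.16 and 73.2% ± 0.582. *Nr1h3*, which encodes the oxysterol receptor LXR alpha, was at 23.7% ± 0.358 and 22.8% ± 0.541 over 18 CpGs. *Ppard*, a widely expressed fatty acid receptor, had 140 tested CpGs, with starts at 4.72% and 4.62% and distant CpGs at 74.3% ± 1.08 and 77.9% ± 0.839. The vitamin D receptor gene *Vdr* (70.8% and 69.7%) and *Nr1i2* (69.0% and 68.7%) had high gene means, and that of *Nr1i3* was intermediate (48.1% ± 3.30 and 50.6% ± 1.31).

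Among the clock receptors, *Nr1d1* (REV-ERB alpha, a repressor in the molecular clock) had 37.0% ± 0.730 in mid-aged and 38.2% ± 0.642 in young mice, and its 8 CpGs more than 2000 bases from every start were also low, at 4.19% ± 1.68 and 7.73% ± 3.37. *Nr1d2*, its paralog, had starts at 0.890% and 0.656% and distant CpGs at 83.9% ± 1.56 and 90.4% ± 1.71. *Rora*, an activator of the clock, spread 242 tested CpGs over a long gene with 45.3% and 45.0%, and *Rorb*, its neuronal relative, had 47.0% and 46.6% over 54.

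The steroid receptors ranged from almost no methylation to a high level. *Nr3c1*, the glucocorticoid receptor, was almost free of methylation over its 155 tested CpGs (1.47% ± 0.0724 and 1.65% ± 0.393), of which 149 lay near a start. *Pgr*, the progesterone receptor, was at 2.84% ± 0.322 and 2.39% ± 0.413, with 29 CpGs within 500 bases and 37 at 500 to 2000 bases of a start. The mineralocorticoid receptor gene *Nr3c2* (28.4% and 27.8%) and *Esr2*, the estrogen receptor beta gene (42.3% and 42.9%), lay between. *Esr1* was the most methylated of the group, with 74.1% ± 0.786 and 69.4% ± 1.79.

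Among the NR2, NR4A, NR5A and NR6A receptors several gene means were low. *Nr2e1*, which acts in neural stem cells, was at 5.18% and 4.58%. *Nr4a3*, an immediate early gene, was at 6.27% and 5.82%, and *Nr6a1*, the germ cell nuclear factor, at 8.44% and 8.43%. Most CpGs of these genes lay within 2000 bases of a start. The CpGs farther away had 61.3% and 60.1% in *Nr4a3* (8 CpGs) and 97.5% and 95.3% in *Nr6a1* (3 CpGs). *Nr2c1*, *Nr2c2* and *Nr2f6*, orphan receptors of the NR2 group, had gene means of 33.9%, 20.8% and 23.5% in mid-aged and 33.7%, 20.6% and 23.2% in young mice. *Hnf4g*, a relative of the hepatocyte factor HNF4 alpha, had only 10 tested CpGs (20.3% ± 2.23 and 22.3% ± 1.66), and *Nr2f1* 69 (10.3% ± 1.93 and 8.12% ± 1.42). *Nr4a1*, an immediate early gene like *Nr4a2* and *Nr4a3*, was higher than either, at 40.2% and 40.1%. *Nr5a1*, the steroidogenic factor 1 of adrenal and gonad, had starts at 23.7% ± 0.340 and 22.4% ± 0.453, while *Nr5a2*, the liver receptor homolog 1, had starts at 8.59% ± 0.775 and 8.16% ± 1.16. The value of *Nr5a1* pooled 73 CpGs near all its annotated starts. At its gene start the promoter mean was high, at 96.0% ± 1.99 (mid-aged) and 94.8% ± 2.78 (young) over 13 CpGs. The estrogen-related receptors *Esrra*, *Esrrb* and *Esrrg* had starts at 1.20%, 13.3% and 2.31% in mid-aged mice.

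**Figure D2:**
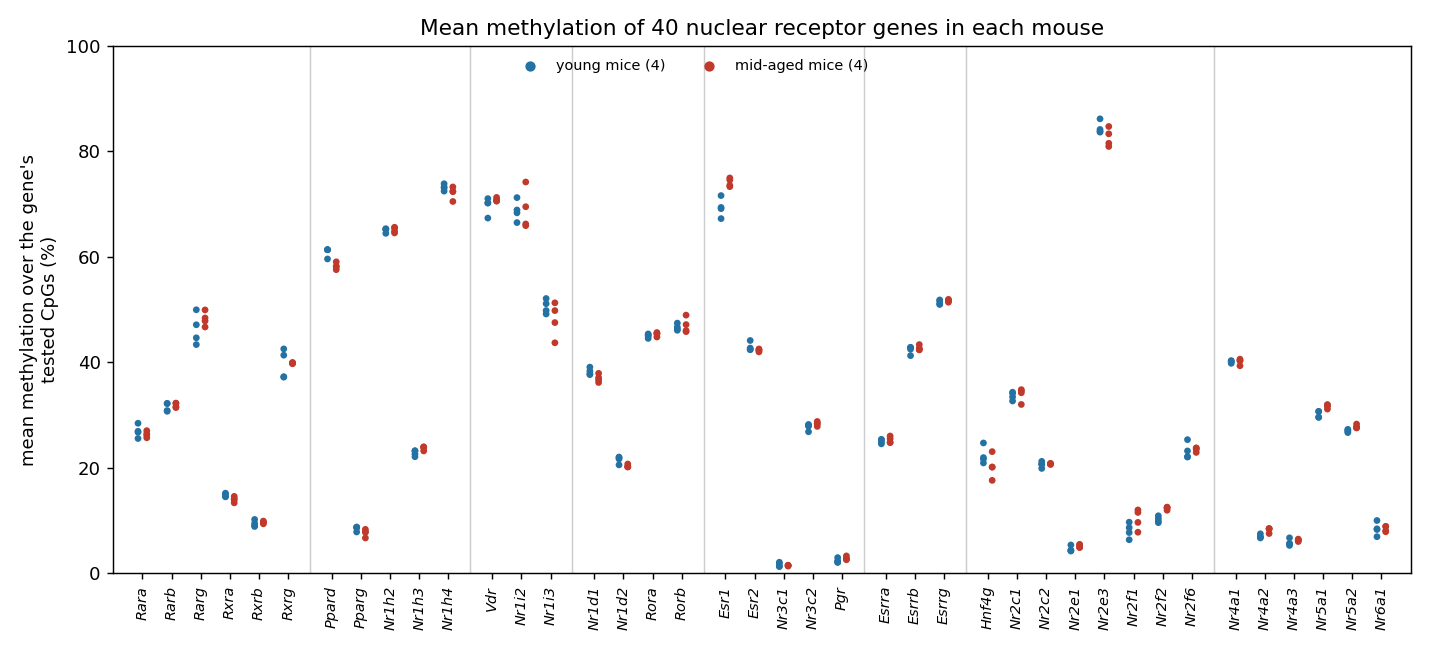
Mean methylation in percent over the tested CpGs of each of 40 nuclear receptor genes, with 1 point per mouse, young mice at the left and mid-aged mice at the right of each gene; grey lines separate the role groups. Levels ran from under 3% in *Nr3c1* and *Pgr* to over 80% in *Nr2e3*, and for most genes the points of the ages overlap or lie within a few points of each other.

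The question of the design was which CpGs differ between the ages. Few of the nuclear receptor CpGs were called: 7 of 3431 (0.204%), 3 lower and 4 higher in mid-aged mice. Of the 897285 tested CpGs, 0.102% were called lower and 0.0615% higher, 0.163% in all. Of the CpGs in or near any gene, 0.101% were lower and 0.0728% higher, and the members' share is near these backgrounds. A call needed an adjusted p under 0.05 over all tested CpGs and a difference of at least 5 points. The variance of the methylation fraction also had to be under 0.05 in each group. In counts simulated at these depths, changes were set at CpGs of intermediate level. Without added spread between mice the test found 2 of 67 changes of 10 points, 24 of 67 of 20 and 48 of 66 of 30. With added spread (intraclass correlation 0.02) it found 0 of 67, 0 of 67 and 0 of 66. A CpG that was not called can therefore still differ. The lower CpGs lay in *Rara*, *Ppard* and *Nr3c1*, 1 each, and the higher ones in *Nr2f2* (3) and *Nr2f6* (1). At an unadjusted p under 0.05, 136 member CpGs were lower (3.96%) and 225 higher (6.56%), against 3.93% and 5.16% of all tested CpGs. Of genes with 30 or more tested CpGs, 3 of 32 members had a lower call and 2 a higher call, against 3.43% and 1.48% of such genes in the genome (1.81% and 0.691% of all genes with a tested CpG). The groups did not overlap and differed by at least 5 points at 37 lower and 62 higher member CpGs (1.08% and 1.81%, against 1.0% and 1.3% of all tested), and by at least 10 points at 25 and 38 (against 0.657% and 0.704%).

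The called CpG of *Rara*, the retinoic acid receptor alpha, lay in the 3′ UTR in exon 10 of 10 (chromosome 11, position 98973716). It had 28%, 25.3%, 25.0% and 38.4% methylation in mid-aged replicates 1 to 4 and 65.5%, 57.6%, 55.6% and 52.9% in young replicates 1 to 4. The groups did not overlap and differed by -28.8 points (29.2% ± 6.31 against 57.9% ± 5.42, adjusted p = 0.0073). The call rested on 58 to 198 reads per mouse. Without mid-aged replicate 2 the adjusted p was 0.069 and without mid-aged replicate 3 it was 0.0527, and the call was kept without any other mouse. The 6 other tested CpGs within 200 bases had 64.9% ± 1.96 and 71.9% ± 7.36, with 4 lower and 2 higher, so the neighbours differed less than the called CpG.

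The called CpG of *Ppard* lay in intron 2, 8636 bases from the nearest transcript start (chromosome 17, position 28280755). The mid-aged mice had 14.8%, 14.7%, 13.6% and 8.57%, and the young mice 24.2%, 46.7%, 47.2% and 35.2%. Each mid-aged mouse was below each young mouse, with the young mice spread widely. The difference was -25.4 points (12.9% ± 2.94 against 38.3% ± 10.9, adjusted p = 0.0292), with 30 to 136 reads per mouse. The adjusted p was above 0.05 without any 1 of the mid-aged mice (0.089 to 0.16) and without young replicate 3 (0.0789) or 4 (0.0727). Both neighbours within 200 bases were lower too, at 17.5% ± 3.49 and 25.9% ± 2.66.

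In *Nr3c1* a CpG of coding exon 2 (chromosome 18, position 39486495) stood out from a gene otherwise near 0. It had 16.2%, 15.2%, 16.3% and 16.7% in mid-aged and 50.6%, 38.9%, 26.7% and 29.6% in young mice. The mid-aged mice lay within 2 points of each other while the young mice were spread over more than 20. The difference was -20.3 points (16.1% ± 0.660 against 36.4% ± 10.8, adjusted p = 0.0149) on 85 to 343 reads per mouse. The 4 neighbours within 200 bases had 9.35% ± 1.58 and 9.59% ± 1.34, so the difference was not seen around it. The call was lost without any 1 of the mid-aged mice (adjusted p = 0.078 to 0.115).

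*Nr2f6*, an orphan receptor related to COUP-TF, gave the largest difference and the thinnest data. The CpG in intron 2 (chromosome 8, position 71376349), which also lies in *Ocel1*, had 95.1%, 82.7%, 85.7% and 78.8% in mid-aged and 36.4%, 40.0%, 45.5% and 50% in young mice. The groups were apart by +42.6 points (85.6% ± 6.97 against 43.0% ± 6.00, adjusted p = 0.03). Only 8 to 30 reads stood behind each young value, and 4 of 8 reads in young replicate 4 give a 95% Wilson interval of 21.5 to 78.5%. The 14 neighbours within 200 bases had 74.2% ± 2.63 and 73.4% ± 5.85. The call was lost without any mouse other than young replicate 1 or 4 (adjusted p = 0.0546 to 0.18).

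**Figure D3:**
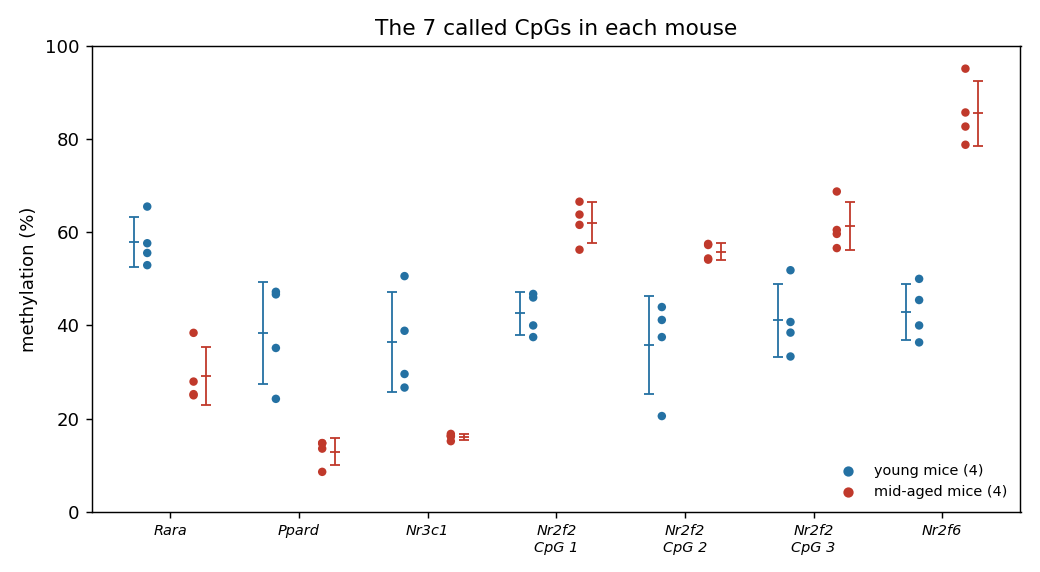
Methylation in percent at the 7 called CpGs, with 1 point per mouse, blue for young and red for mid-aged mice; bars are mean and SD over 4 mice. In all 7 the groups did not overlap, the 3 CpGs at the left being lower and the 4 at the right higher in mid-aged mice.

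*Nr2f2* encodes COUP-TFII, an orphan receptor of mesenchyme, vein and lymphatic development that also acts on metabolism in the liver. It was the only member with a run of called CpGs, defined as at least 3 of one direction with at most 200 bases between neighbours. The run spanned coding exon 2 (chromosome 7, 70358050 to 70358206), 198 to 353 bases from the nearest transcript start, and held 3 called of 16 tested CpGs. Averaged over these, the mid-aged mice had 48.6%, 57.6%, 53.5% and 56.2% and the young mice 39.6%, 41.0%, 46.4% and 42.2%. Every mid-aged mouse was above every young mouse, by a mean of +11.7 points (54.0% ± 3.95 against 42.3% ± 2.93). The run was defined by its calls, so no test of its mean is given.

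The CpG with the largest difference in *Nr2f2* (position 70358205) had 56.6%, 68.8%, 60.5% and 59.6% in mid-aged and 51.9%, 38.5%, 33.3% and 40.7% in young mice, +20.3 points (61.4% ± 5.19 against 41.1% ± 7.81, adjusted p = 0.0498). The others were at 62.1% ± 4.37 against 42.6% ± 4.53 (position 70358050, adjusted p = 0.0206) and 55.8% ± 1.82 against 35.8% ± 10.5 (position 70358195, adjusted p = 0.0237). Without mid-aged replicate 2, 3 or 4, or without young replicate 2, each of the 3 calls was lost (adjusted p = 0.066 to 0.244). The stretch around the run was higher as a whole: of the 30 tested CpGs between 70357882 and 70358423, 30 had a higher mean in the mid-aged mice, and those CpGs share reads. The level was low upstream of the run in *Nr2f2*, with 2.93% against 2.61% at position 70358228, 7.61% against 3.31% at 70358249 and 14.2% against 10.1% at 70358339.

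**Figure D4:**
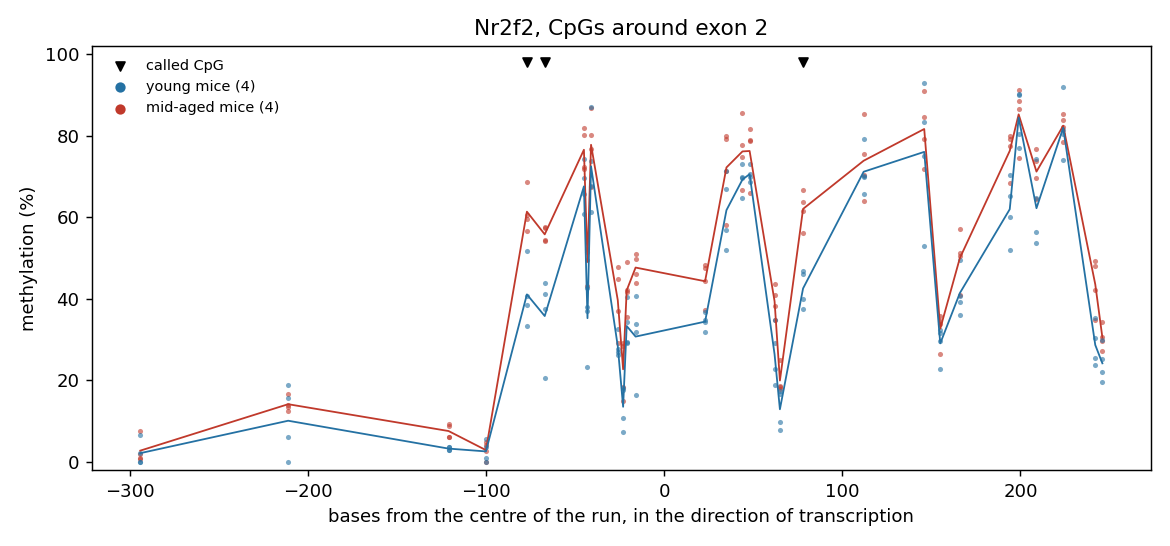
Methylation in percent at tested CpGs within 350 bases of the centre of the *Nr2f2* run, by distance in bases along the direction of transcription; points are mice, lines join group means and black triangles mark the 3 called CpGs. The mid-aged line lies above the young line at all 30 CpGs shown, with 50.6% against 41.9% on average.

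The gene mean of *Nr2f2*, over 141 CpGs, was the only called one among the 40 members (0 lower, 1 higher), against 0.225% lower and 0.295% higher of 24433 genes. The mid-aged mice had 12.0%, 12.3%, 12.6% and 12.5%, all above the young mice with 10.4%, 9.61%, 10.9% and 9.91%. The difference was +2.13 points with a standard error of 0.331 (12.3% ± 0.267 against 10.2% ± 0.574, limma with Benjamini-Hochberg adjustment, adjusted p = 0.0445). That call ended under each of 12 alternatives, with adjusted p from 0.05 without young replicate 3 to 0.562 with pooled reads. With *Nr2f2* included, 4 gene means were lower and 6 higher at an unadjusted p under 0.05, against 3.66% and 7.75% of all gene means. Without regard to any test, 28 of the 40 had a higher value in mid-aged mice and 12 a lower one, while 60.6% of all gene means were on the higher and 39.4% on the lower side.

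*Esr1* had the largest difference of a gene mean. The mid-aged mice had 74.6%, 73.6%, 75.0% and 73.3% and the young mice 67.3%, 69.1%, 71.6% and 69.4%, with no overlap, a difference of +4.76 points (standard error 1.02) and an adjusted p of 0.117 by limma. In *Ppard* the gene means were 57.6%, 58.1%, 58.3% and 59.1% in mid-aged against 61.4%, 61.4%, 61.4% and 59.6% in young mice, -2.68 points (standard error 0.672, adjusted p = 0.181 by limma). In *Nr4a2*, an immediate early orphan receptor, they were 8.24% ± 0.456 and 7.0% ± 0.340, +1.23 points (adjusted p = 0.165 by limma). None of these passed the test.

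A promoter mean, from 1500 bases upstream to 500 downstream of the gene start, could be computed for 29 members. None was called by limma, against 0.017% lower and 0.0396% higher of 17684 promoters, and at an unadjusted p under 0.05 there was 1 lower and 0 higher (against 2.17% and 6.79% of all promoters). The lower one was that of *Nr2f1*, which encodes COUP-TFI, with 0.564% ± 0.311 against 2.18% ± 0.574 over only 3 CpGs (adjusted p = 0.181). It is named after its value was seen. A promoter mean could differ from the mean near all annotated starts of a gene. In *Rara* the promoter mean was 68.0% ± 4.91 (mid-aged) and 61.9% ± 5.71 (young) over 6 CpGs. The 42 *Rara* CpGs near any start had 5.74% and 4.91%.

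To see whether neighbouring CpGs moved together, tested CpGs with at most 300 bases between neighbours were joined to clusters of at least 3, a choice made after the data were seen. Of 266 clusters in the members none was called by limma, against 0.0657% lower and 0.0351% higher of 88299 clusters (0.0646% and 0.0317% with a difference of at least 5 points), and 16 were lower and 15 higher at an unadjusted p under 0.05 (6.02% and 5.64%, against 3.34% and 5.16%). In 9 clusters the groups did not overlap and differed by at least 5 points, 7 lower (2.63%, against 1.42% of all clusters) and 2 higher (0.752%, against 1.37%). These 9 were singled out after their values were seen and are given as a description.

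The higher clusters were those of *Nr2f2* exon 2 and of *Esr1*. The *Esr1* cluster ran over the end of intron 2 and exon 3 (chromosome 10, 4712157 to 4712828), from 494 bases upstream to 176 downstream of a transcript start, and held 49 CpGs, 48 of them higher in mid-aged mice. The mid-aged mice had a mean of 80.1%, 76.7%, 77.2% and 75.0% and the young mice 64.8%, 67.1%, 73.7% and 66.8%, a difference of +9.17 points (77.2% ± 2.11 against 68.1% ± 3.86, adjusted p = 0.424 by limma). No single CpG of it was called in the main test. The CpG at position 4712646 was called higher with the replicate block. Those at 4712641 and 4712369 were called higher without young replicate 1 and without young replicate 4, respectively. The adjusted p of the *Nr2f2* cluster was 0.39 (50.6% ± 1.66 against 41.9% ± 2.70).

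The lower clusters lay in introns of *Ppard* (3), *Nr1d2* (2) and *Pparg* (1) and at the 3′ end of *Rara* (1). The *Ppard* cluster that holds the called CpG (chromosome 17, 28280391 to 28280799) had 22.6%, 13.3%, 19.1% and 17.6% in mid-aged and 36.9%, 33.0%, 33.2% and 29.4% in young mice, with all 7 CpGs lower. The difference was -15 points and the adjusted p by limma 0.0731, the lowest of the 9. A further *Ppard* cluster of intron 2 (28256791 to 28257032) had 62.6% ± 7.40 against 76.9% ± 3.38 with 9 of 9 CpGs lower (adjusted p = 0.374). In intron 1 of *Nr1d2* a cluster (chromosome 14, 18236127 to 18236307) had 58.3% ± 4.26 against 71.6% ± 5.05, and in intron 6 of *Pparg* (chromosome 6, 115477326 to 115477801) 4 CpGs had 57% ± 8.91 against 71.3% ± 4.66. The adjusted p values of the last 2 were 0.362 and 0.458.

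**Figure D5:**
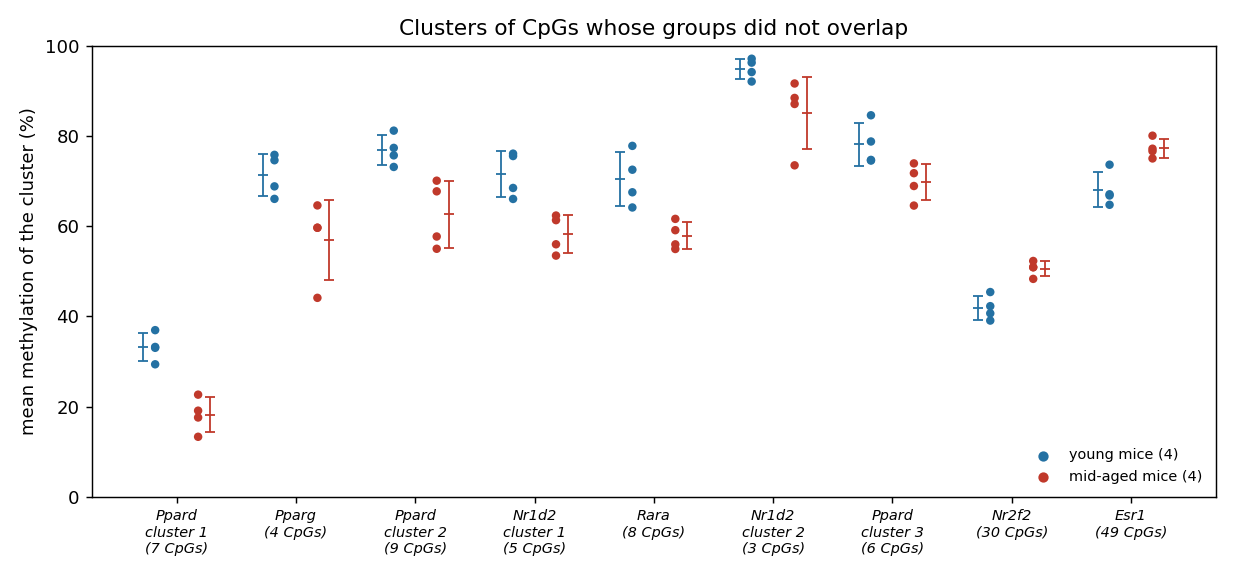
Mean methylation in percent of the 9 clusters of CpGs whose groups did not overlap and differed by at least 5 points, with 1 point per mouse, blue for young and red for mid-aged mice, and bars for mean and SD over 4 mice. The 7 clusters at the left are lower and those of *Nr2f2* and *Esr1* at the right higher in mid-aged mice; none passed the test across all clusters.

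Genes that work with the receptors were taken from 3 lists. Of the coregulators, 24 genes that include the corepressors and coactivators recruited by the receptors, 8 of 1765 tested CpGs were lower (0.453%) and 0 higher, against 0.102% and 0.0615% of all tested CpGs. Called CpGs of a list can share a gene and reads, so this count is not one of independent sites. Among the 8, the CpG upstream of *Ncoa3*, a coactivator, had 27.4% ± 3.79 against 56.1% ± 3.64 (adjusted p = 2.32e-05), and it is named after its value was seen. The 22 genes of ligand supply (710 CpGs), such as those of retinoic acid and oxysterol synthesis, and the 28 target genes of liver (588 CpGs) had 0 called CpGs in either direction. By limma none of the gene means of the 3 lists was called, and *Srd5a2*, a steroid 5-alpha reductase singled out after its value was seen, differed by +7.45 points (adjusted p = 0.0863).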

How the data were processed

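Methylation was measured by RRBS in hepatocytes of 8 mice. The percent of methylated reads and the read count per strand of each CpG were deposited by the authors, on mm10 and without further normalization. Tools in the submitters' processing notes are BWA 0.6.2, Picard 1.115, SAMtools 1.3, Trim Galore 0.4.2 and FastQC; for the calling of methylation, a tool was not given in the sources used here. The number of methylated reads was taken as percent times reads, whole in all entries. Genes follow GENCODE vM21.

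CpGs covered by 5 or more reads in all mice were tested by a quasi-binomial logistic model with 1 term for age, its dispersion moderated by limma 3.58.1 (R 4.3.3) and not below 1, with Benjamini-Hochberg adjustment over 897285 CpGs. CpGs with a dispersion of 0 were left out when the prior of the moderation was estimated, a choice made on simulated counts. Their own dispersion was still moderated. The alternative with all CpGs in the moderation kept them in that estimate. Means of genes, promoters and clusters (at least 3 CpGs) were tested by limma with a trend, over all such features. Depth was 46321447 to 118395064 reads over CpGs per library. The mouse numbers shared by the groups did not pair the mice. Alternatives were the coverage minimum, the test, the moderation, the smallest difference, pooled reads, M values, each mouse left out and a replicate block.

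The members and lists were chosen with earlier results of these data known. Every member with a called CpG, run or gene mean was named, with the called CpG of largest difference that had at least 10 reads in every mouse, or 5 where none had 10. The values of other members are given by role, after they were seen. Whether mice were litter mates is not stated, so p-values measure the spread between these mice. A further result in the coregulator list is not reported here.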

Additional observations from a re-analysis of the deposited data

Results flagged for a closer look

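In 6 of 114 groups of 4 mice examined (40 gene means, the 7 called CpGs, the 9 clusters and the mean over all members), 1 mouse lay far from the other 3; by chance about 1 in 20 groups would. Young replicate 4 had a *Ppard* gene mean of 59.6% against 61.4% in the other young mice, and a *Nr1h2* gene mean of 64.5% against 65.2 to 65.3%. Young replicate 1 had a *Pparg* gene mean of 7.84% against 8.65 to 8.77%, and a *Nr2e1* gene mean of 5.38% against 4.23 to 4.4%. Mid-aged replicate 3 had a *Nr1d2* gene mean of 20.7% against 20.2 to 20.3%, and mid-aged replicate 2 a *Nr4a2* gene mean of 7.55% against 8.43 to 8.49%.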

How the results depend on the processing

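The count of 7 called member CpGs was 6 with 10 reads in each mouse, 7 with a difference of at least 10 points and 10 with the replicate block, 3 with limma on M values (none of the 7), and 0 with all CpGs in the moderation. With 1 mouse left out it ran from 0 (without mid-aged replicate 2 or 3) to 11 (without young replicate 1). The 8 called CpGs of the 3 lists became 0 with all CpGs in the moderation and 20 with the replicate block, and ran from 2 to 20 with 1 mouse left out; with limma on M values 9 of 10 calls were higher. The gene mean count of 1 was 0 with 10 reads, pooled reads, M values, the replicate block (adjusted p = 0.191 for *Nr2f2*), clusters in place of genes (an alternative chosen after seeing the data) and, as a range, 0 to 0 without each mouse. Promoter means gave 0 calls under all 12 alternatives. The mean difference of 0.296 points was 0.166 to 0.371 with 1 mouse left out, and reversed to -8.21 with reads pooled over CpGs, where deep CpGs weigh more: CpGs below 20% methylation held 76.0% of the reads on members at the mid age and 66.2% at the young age. The direction of a called CpG could not reverse in these alternatives. The groups did not overlap at the 7 CpGs, so leaving out 1 mouse keeps the sign, and the other settings share the same group means. Same-numbered mice did not deviate together (correlations of -0.00244 to 0.00811), so the block shares only a number. Coverage limits differences at single CpGs, most of all in *Nr2f6*.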
